A study of Mesocricetus auratus with 21 samples.

Results

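Sohlh1, Sall4, Zbtb16 and Uchl1 are 4 genes used as marks of spermatogonia, and their transcripts were followed in whole testes of golden hamsters with and without *Mov10l1*. The genes were chosen by name and not by a level: the identifier of Sohlh1 was given, and those of the other 3 were read from the gene name column of the study's lists of changed genes. They are 4 of the 22285 genes counted. The symbols of all 4 genes stand in the list of genes that the study called changed at 9 days postpartum (d.p.p.) in these same libraries, so their values at 9 d.p.p. are a description and no independent evidence, while the other ages did not enter that list. Total RNA of whole testes was depleted of ribosomal RNA and sequenced in 21 libraries. The groups were *Mov10l1*+/+ and *Mov10l1*-/- males at 0, 9, 13 and 21 d.p.p. and adults, with 2 libraries in each group, except for 3 wild-type libraries at 9 d.p.p. The adults were 65 and 23 weeks old in the wild type and 63 and 53 weeks old in the mutant. The mutant allele lacks exon 20 of *Mov10l1*, which codes for part of the helicase domain. It goes back to 1 founder female whose heterozygous descendants were bred to outbred animals, and every mutant carries the deletion in all cells of the body.

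Spermatogonia are the germ cells at the base of the seminiferous tubule, from which all later stages of sperm formation arise. They descend from gonocytes, the resting germ cells of the newborn testis, and pass from an undifferentiated, self-renewing state to a differentiating state that leads into meiosis. Sohlh1 is a basic helix-loop-helix transcription factor required for spermatogonial differentiation. Sall4 is a zinc-finger transcription factor of gonocytes and undifferentiated spermatogonia. Zbtb16 encodes PLZF, a transcriptional repressor needed to maintain spermatogonial stem cells that is also made in other cell types, and Uchl1 encodes a ubiquitin carboxy-terminal hydrolase that is abundant in spermatogonia and in neurons. Mov10l1 is an RNA helicase that feeds precursor transcripts into the production of PIWI-interacting RNAs, small RNAs that silence retrotransposons in germ cells.

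On the MesAur1.0 assembly, Sohlh1 (ENSMAUG00000019543) lies on the plus strand of scaffold KB708281.1 from 1515314 to 1519562. Sall4 (ENSMAUG00000015814) lies on the minus strand of KB708174.1 from 2585315 to 2604229. Zbtb16 (ENSMAUG00000010982) lies on the minus strand of KB708145.1 from 11265674 to 11444309, and Uchl1 (ENSMAUG00000000614) on the minus strand of KB708173.1 from 2911021 to 2920718. Reads shared with other genes were counted as fractions. The decimal parts of the library totals made up 0.0257% of the Sall4 count and none of the count of the other 3 genes. Fractions that add up to whole counts do not show in this figure, so it does not measure the part of shared reads.

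The libraries held between 3550217 counts (wild type of 13 d.p.p., replicate 2) and 77527451 counts (wild type of 9 d.p.p., replicate 1). Levels are given as CPM, the count scaled to a common library size over all 21 libraries, and log2 fold changes with their standard errors (SE) come from a separate fit within each comparison. Genes were called at an adjusted p below 0.01 (edgeR's quasi-likelihood test, Benjamini-Hochberg adjustment over all genes tested). *Mov10l1* itself was at 18.2 to 139 CPM in the 11 wild-type libraries and at 0.127 to 10.8 CPM in the 10 mutant libraries, and its ranges did not overlap at any age. It was called lower at 0, 9 and 21 d.p.p. and in adults, with log2 fold changes of -2.70, -4.61, -10.02 and -4.79, and missed the threshold at 13 d.p.p. (-6.77, adjusted p = 0.0154). Testes of 0 and 9 d.p.p. had single-end reads of 75 nucleotides, and the older ones had paired-end reads of 150 nucleotides, so the step from 9 to 13 d.p.p. and the type of library cannot be told apart. Both mutant libraries of 9 d.p.p. carry the same animal code, although they differed by more than sampling noise, so that p-values measure the spread between libraries, which may be technical at that age.

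At 0 d.p.p., transcripts of Sohlh1, Sall4 and Zbtb16 did not pass the test between the genotypes, whereas Uchl1 fell in the mutant. Of the 4 genes, 1 was called lower and 0 were called higher, beside 0.918% of the 16341 genes tested called lower and 0.991% called higher. Uchl1 stood at 17.3 and 25.6 CPM in *Mov10l1*+/+ newborns and at 7.45 and 7.31 CPM in *Mov10l1*-/- newborns. Both mutant libraries lay below both wild-type libraries. The log2 fold change was -1.54 (SE 0.183, adjusted p = 0.00106, edgeR). A single fit over all 21 libraries gave -1.55 with an adjusted p of 0.0117, which missed the threshold. In whole testes, fewer cells of a type and less RNA per cell cannot be told apart.

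Sohlh1 stood at 24.8 and 21.6 CPM in wild-type newborns and at 30.7 and 22.2 CPM in mutant newborns, a log2 difference of 0.18 (SE 0.154, adjusted p = 0.554). Sall4 measured 53.4 and 32.2 CPM in wild-type newborns against 59.7 and 52.5 CPM in mutant ones, a log2 difference of 0.37 (SE 0.182, adjusted p = 0.254). For both genes the ranges of the genotypes overlapped. Zbtb16 was at 3.66 and 3.38 CPM against 3.01 and 3.07 CPM, which did not overlap but gave a log2 difference of only -0.22 (SE 0.213, adjusted p = 0.592). Without wild-type replicate 1, the Sall4 difference was 0.78 and was called (adjusted p = 0.00448).

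**Figure D1:**
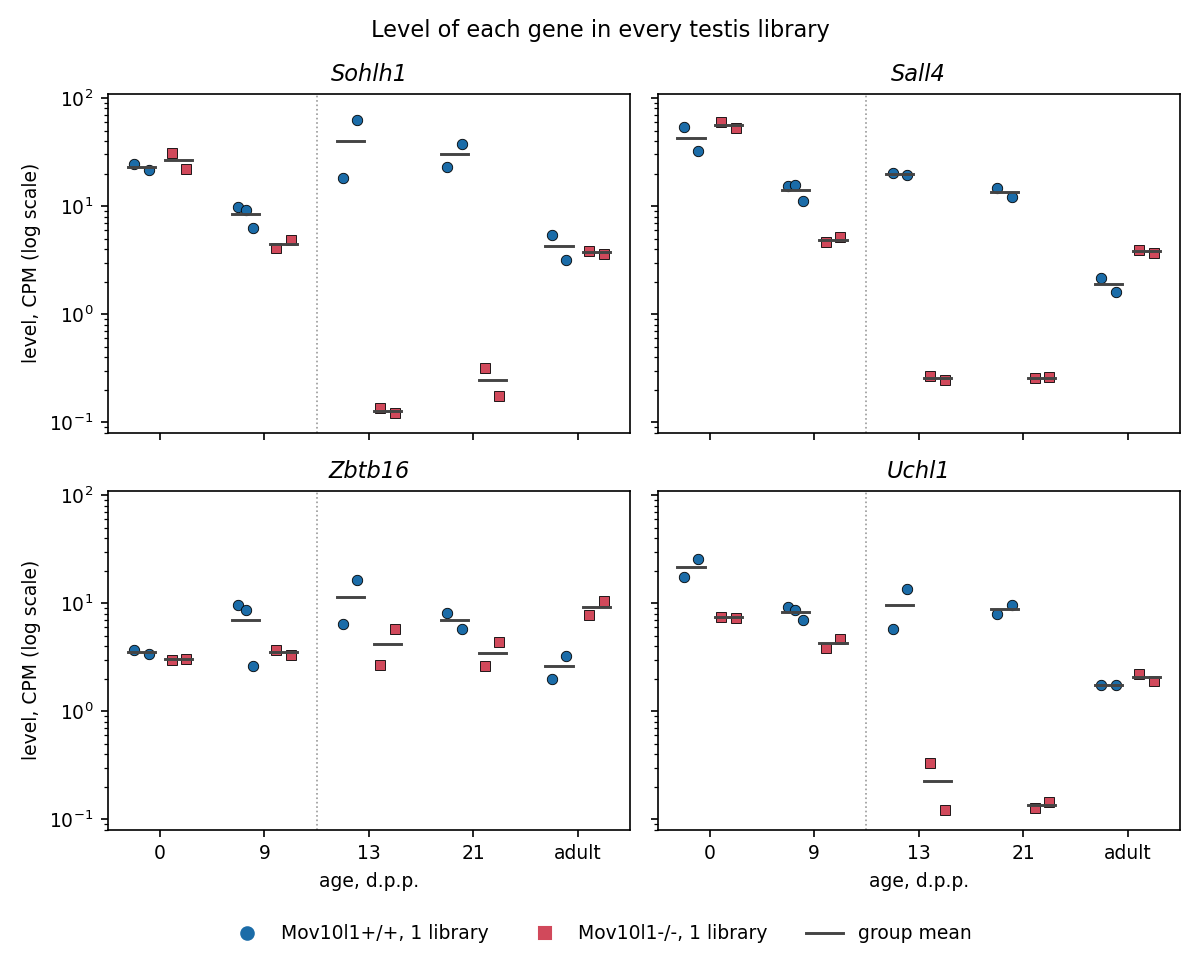
Level of Sohlh1, Sall4, Zbtb16 and Uchl1 (CPM, log scale) in each of the 21 testis libraries by age, with wild-type libraries as circles, mutant libraries as squares and group means as bars; the dotted line parts single-end from paired-end libraries. Sohlh1, Sall4 and Uchl1 were at 0.122 to 0.336 CPM in every mutant library of 13 and 21 d.p.p., whereas Zbtb16 was at 2.61 to 5.72 CPM there.

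The newborn libraries of the genotypes also differed in markers of somatic cells. The summed level of 5 Sertoli cell genes, which nurse the germ cells, was 1727 to 2002 CPM in the wild type and 1041 to 1311 CPM in the mutant, and 3 of the 5 were called lower. The study's list of genes changed at birth supplied the symbols of all 5, so this count is not independent evidence. Cyp11a1, the only Leydig cell marker with an identifier, was at 31.8 to 34.4 CPM against 67.9 to 68.6 CPM. The sum of 10 germ cell genes was 1048 to 1297 CPM against 1244 to 1540 CPM. Of the 10, 2 were called higher and none lower, beside 0.991% and 0.918% of all genes tested. The study's list of genes changed at birth named 2 of the 10, so this count is not independent evidence either. The sum of the neuronal genes Stmn2 and Gap43 was 2.27 to 2.56 CPM against 1.76 to 2.09 CPM. The part of these cell types in the Uchl1 result was not tested. No family code, the first part of the animal code, holds both genotypes at this age, so family and genotype cannot be told apart.

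At 9 d.p.p., all 4 genes were lower in the mutant when wild-type replicates 1 and 2 were compared with both mutant libraries. The study states 2 libraries per genotype but not which, and leaving out wild-type replicate 3 was a choice made here. The 4 calls stand beside 3.2% of 15570 genes called lower and 0.559% called higher, and nothing is read from them, since the symbols came from this contrast. Sall4 showed the largest difference of the 4, with 15.2, 15.6 and 11.2 CPM in *Mov10l1*+/+ testes and 4.62 and 5.16 CPM in *Mov10l1*-/- testes. Sohlh1 was at 9.78, 9.17 and 6.21 CPM against 4.13 and 4.88 CPM, and Uchl1 at 9.13, 8.57 and 7.06 CPM against 3.87 and 4.71 CPM. For these 3 genes every mutant library lay below every wild-type library, the third included. Zbtb16 measured 9.57 and 8.68 CPM in the first pair of *Mov10l1*+/+ replicates but 2.61 CPM in replicate 3, below the mutant libraries at 3.72 and 3.33 CPM.

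The log2 fold changes without wild-type replicate 3 were -1.11 for Sohlh1 (SE 0.117, adjusted p = 0.00137), -1.69 for Sall4 (SE 0.101, adjusted p = 1.69e-04), -1.41 for Zbtb16 (SE 0.119, adjusted p = 6.43e-04) and -1.08 for Uchl1 (SE 0.123, adjusted p = 0.00195). With all 5 libraries, 1 of the 4 was called lower, beside 0.355% of 15776 genes called lower and 0.057% called higher. That gene was Sall4, at -1.55 (adjusted p = 0.00487). With the mutant libraries, which carry 1 animal code, summed to a single sample, Sall4 was at -1.55 with an adjusted p of 0.062 and was not called. The other 3 missed the threshold, with -0.93 for Sohlh1 (adjusted p = 0.0479), -1.02 for Zbtb16 (adjusted p = 0.242) and -0.98 for Uchl1 (adjusted p = 0.0169). Wild-type replicate 3 and the mutant libraries share the family code So820. Within that code, the mutant level was 0.438 times the wild-type level for Sall4, 0.608 times for Uchl1, 0.725 times for Sohlh1 and 1.35 times for Zbtb16, from 1 wild-type library. Thus the direction of Zbtb16 at this age turned with the wild-type library used.

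Other germ cell genes of these libraries are given beside the members. The sum of 12 genes of undifferentiated spermatogonia was 122 to 180 CPM in the wild type, lowest in replicate 3, and 85.5 to 86.8 CPM in the mutant. The sum of 10 germ cell genes was 257 to 304 CPM against 106 to 122 CPM. Of the 12 undifferentiated genes 11 were called lower without replicate 3 and 2 with all 5 libraries, and the study's 9 d.p.p. list named 11 of the 12, so neither count is independent evidence. The 5 Sertoli cell genes summed to 3149 to 3243 CPM and 3423 to 3579 CPM, with 0 called. Markers of other cells were lower in the mutant in the comparison without replicate 3. The neuronal genes Stmn2 and Gap43 summed to 4.196 to 6.28 CPM in the 3 wild-type libraries and 2.698 to 2.79 CPM in the mutant, and Gap43 was called (log2 fold change -1.22, adjusted p = 0.00844). Vwf of endothelial cells (-2.34, adjusted p = 0.00762), Cyp11a1 of Leydig cells (-0.44, adjusted p = 0.00903) and Tagln, 1 of 3 genes of peritubular and smooth muscle cells (-0.45, adjusted p = 0.00613), were called lower as well, and Csf1r of macrophages was not (-0.62, adjusted p = 0.0314). With all 5 libraries none of these markers was called. The study's 9 d.p.p. list named these markers, the 10 germ cell genes and 3 of the 5 Sertoli cell genes. Their values at this age are therefore no independent evidence. The part of the germ cells and of these other cells in the 4 differences was not tested.

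At 13 d.p.p., Sohlh1, Sall4 and Uchl1 were near the detection limit in the mutant, and Zbtb16 was not. Of the 4 genes 2 were called lower, Sohlh1 and Sall4, beside 0.121% of 13254 genes called lower and 0% called higher. Sohlh1 measured 18.3 and 62.2 CPM in *Mov10l1*+/+ testes and at 0.134 and 0.122 CPM in the mutant. Those mutant levels rest on 2 and 4 reads. The log2 fold change was -8.37 (SE 0.849, adjusted p = 0.00975). Sall4 measured 20.4 and 19.6 CPM in *Mov10l1*+/+ testes, where the libraries lay closest together, and at 0.268 and 0.243 CPM in the mutant, or 4 and 8 counts. Its log2 fold change was -6.38 (SE 0.448, adjusted p = 0.00703).

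Uchl1 measured 5.78 and 13.7 CPM in *Mov10l1*+/+ testes of 13 d.p.p. and at 0.336 and 0.122 CPM in the mutant. Its log2 fold change of -5.65 (SE 0.746) missed the threshold narrowly, with an adjusted p of 0.0158, although the ranges lay more than an order of magnitude apart. Zbtb16 was at 6.48 and 16.5 CPM against 2.69 and 5.72 CPM. Its ranges did not overlap, but the log2 difference of -1.54 (SE 0.573) was not called (adjusted p = 0.395). Replicates 1 of both genotypes share the family code F60 and replicates 2 the code F64. With the replicate number as a block, Uchl1 was at -5.64 and was called (adjusted p = 1.74e-15), and 471 genes were called lower and 19 higher, against 16 and 0 without the block. Uchl1 was also called by DESeq2 (adjusted p = 7.2e-11), where 307 genes were called lower. It was called as well with no filter on low counts (edgeR, adjusted p = 2.05e-17), where 427 genes were called lower. In the 4 fits that left out 1 library, its log2 fold change was -6.34 to -4.84.

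Counts pooled over the libraries of a genotype give the size of these remainders. At 13 d.p.p. the mutant held 0.400% of the wild-type level of Sohlh1 (exact 95% interval 0.146 to 0.879%). The corresponding shares were 1.25% for Sall4 (0.636 to 2.21%) and 2.32% for Uchl1 (1.04 to 4.56%). The share of Zbtb16 was 50.5% (40.6 to 63.0%), above the upper bounds of the other 3. The intervals cover counting error only. Pooling weights each genotype towards its deeper library, which carries the code F60 in the wild type and F64 in the mutant. The ratio of the group means of Zbtb16 was 36.6%, below its pooled interval. Both genotypes of this age occur in each of the family codes F60 and F64, and the direction was the same in both codes for all 4 genes. The mutant level of Zbtb16 was 0.415 times the wild-type level in F60 and 0.347 times in F64, and that of Sohlh1 0.00732 and 0.00196 times.

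At 21 d.p.p., Sohlh1, Sall4 and Uchl1 fell again to a small remainder in the mutant. These 3 of the 4 genes were called lower, beside 20.9% of 14849 genes called lower and 17.2% called higher. Sohlh1 measured 22.8 and 37.4 CPM in *Mov10l1*+/+ testes and at 0.319 and 0.174 CPM in the mutant (log2 fold change -7.22, SE 0.419, adjusted p = 1.72e-05). Sall4 was at 14.8 and 12.03 CPM against 0.255 and 0.260 CPM (-5.83, SE 0.345, adjusted p = 1.79e-05). Uchl1 was at 8.02 and 9.56 CPM against 0.127 and 0.145 CPM (-6.10, SE 0.406, adjusted p = 2.92e-05). In none of the 3 did the genotypes overlap, and the counts in the mutant libraries were 2 to 9.

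Zbtb16 measured 8.15 and 5.79 CPM in *Mov10l1*+/+ testes of 21 d.p.p. and at 2.61 and 4.37 CPM in the mutant. The ranges did not overlap, and the log2 fold change of -1.13 (SE 0.345) had an adjusted p of 0.0237. Pooled over libraries, the mutant held 57.9% of the wild-type level of Zbtb16 (exact 95% interval 46.6 to 72.0%), and the ratio of its group means was 50.1%. The shares of the other genes were 0.675% for Sohlh1 (0.336 to 1.22%), 1.99% for Sall4 (1.05 to 3.46%) and 1.54% for Uchl1 (0.613 to 3.24%). Within family code F58, with 1 library of each genotype, Zbtb16 was at 0.452 times and Sall4 at 0.0212 times the wild-type level.

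**Figure D2:**
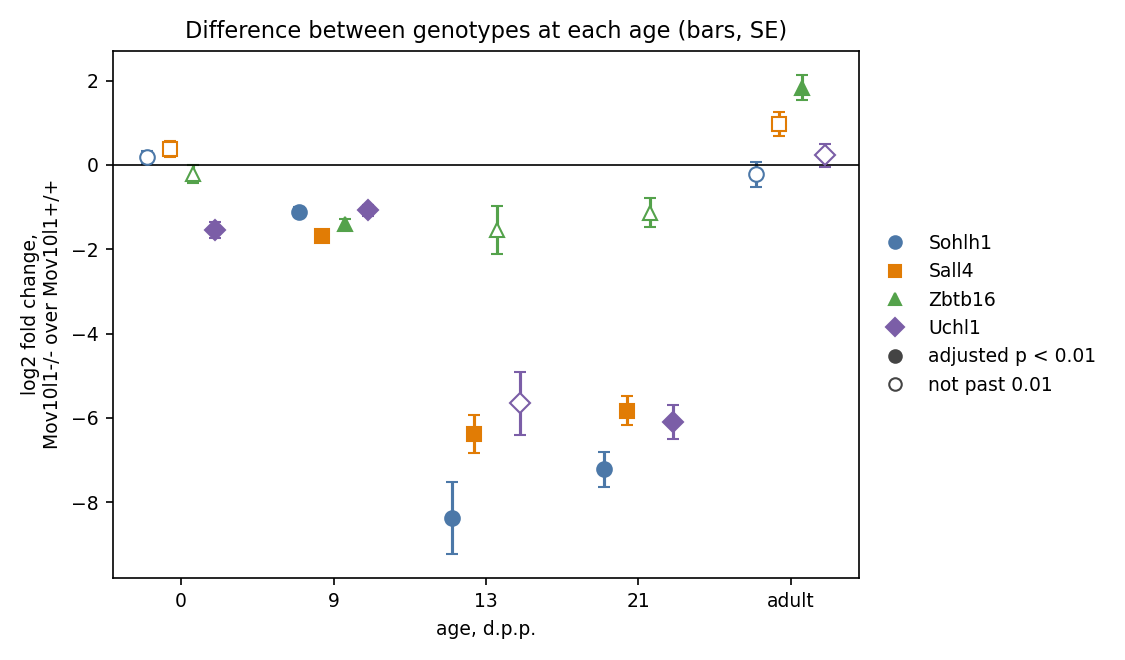
Log2 fold change of the mutant over the wild type for each of the 4 genes at each age, with SE as bars; filled symbols passed an adjusted p of 0.01 and open symbols did not. The 9 d.p.p. points use 2 libraries per genotype. Sohlh1, Sall4 and Uchl1 reached -8.37 to -5.65 at 13 and 21 d.p.p., whereas Zbtb16 stayed between -1.54 and -1.13 there and was at 1.83 in adults.

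The sums of the germ cell and Sertoli cell lists also differed between the genotypes at 13 and 21 d.p.p. The 10 germ cell genes summed to 405 to 477 CPM in the wild type and 27.9 to 64.8 CPM in the mutant at 13 d.p.p., and to 1583 to 2355 CPM against 40.6 to 43.6 CPM at 21 d.p.p. At 13 d.p.p. 0 of the 10 were called, with a median log2 fold change of -3.92 beside 0.02 over all genes tested. At 21 d.p.p. all 10 were called lower, with a median of -8.46 beside 0.04. Over all genes tested, 0.121% were called lower at 13 d.p.p., and 20.9% lower and 17.2% higher at 21 d.p.p. The 5 Sertoli cell genes summed to 2152 to 3039 CPM against 3839 to 4027 CPM at 13 d.p.p. and to 1951 to 2003 CPM against 6617 to 6649 CPM at 21 d.p.p., where 4 of the 5 were called higher. Cyp11a1 was at 61.0 to 61.3 CPM against 366 to 497 CPM at 21 d.p.p. The part of cell composition in the levels of the 4 genes was not tested.

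In adults, none of the 4 genes was called lower in the mutant and 1, Zbtb16, was called higher. These calls stand beside 37.2% of 15766 genes called lower and 37.2% called higher, so that 74.4% of all genes differed. Zbtb16 measured 1.98 and 3.21 CPM in *Mov10l1*+/+ testes and at 7.86 and 10.5 CPM in the mutant. Both mutant libraries lay above both wild-type libraries, with a log2 fold change of 1.83 (SE 0.304, adjusted p = 9.89e-04). Sall4 also had no overlap, at 2.18 and 1.61 CPM against 3.95 and 3.67 CPM. Its log2 difference of 0.97 (SE 0.275) narrowly missed the threshold with an adjusted p of 0.0131.

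Sohlh1 was at 5.35 and 3.15 CPM in wild-type adults and at 3.87 and 3.58 CPM in mutant adults, a log2 difference of -0.23 (SE 0.299, adjusted p = 0.501) with overlapping ranges. Uchl1 was at 1.74 CPM in both wild-type libraries and at 2.21 and 1.93 CPM in the mutant, a log2 difference of 0.23 (SE 0.279, adjusted p = 0.468). The median log2 fold change of all genes was 0.14, and it was -0.06 with RLE size factors and 0.36 with total counts alone. Relative to that median the members stood at -0.37 (Sohlh1), 0.83 (Sall4), 1.69 (Zbtb16) and 0.08 (Uchl1), and these values moved by less than 0.01 between the scalings. The adults of the wild type were 65 and 23 weeks old and those of the mutant 63 and 53 weeks, and no family code holds both genotypes.

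The adult mutant testis held few transcripts of the germ cell list, at 86.7 to 92.5 CPM summed over 10 genes against 4775 to 5220 CPM in the wild type. All 10 were called lower, while 5 of 5 Sertoli cell genes were called higher and summed to 5908 to 6386 CPM against 763 to 1040 CPM. Over all genes tested, 37.2% were called lower and 37.2% higher. Among the other lists, Csf1r, a receptor of macrophages, was at 37.1 to 53.1 CPM against 5.56 to 11.9 CPM, and Cyp11a1 at 610 to 789 CPM against 20.0 to 30.4 CPM. Vwf of endothelial cells was at 4.06 to 4.18 CPM against 3.82 to 4.52 CPM, and 3 genes of peritubular and smooth muscle cells summed to 194 to 204 CPM against 98.3 to 104 CPM. The neuronal genes Stmn2 and Gap43 summed to 0.733 to 1.24 CPM against 0.067 to 0.159 CPM, and Stmn2 was at 0 in both wild-type libraries. Which cells held the adult transcripts of Zbtb16, Sall4 and Uchl1 was not tested.

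**Figure D3:**
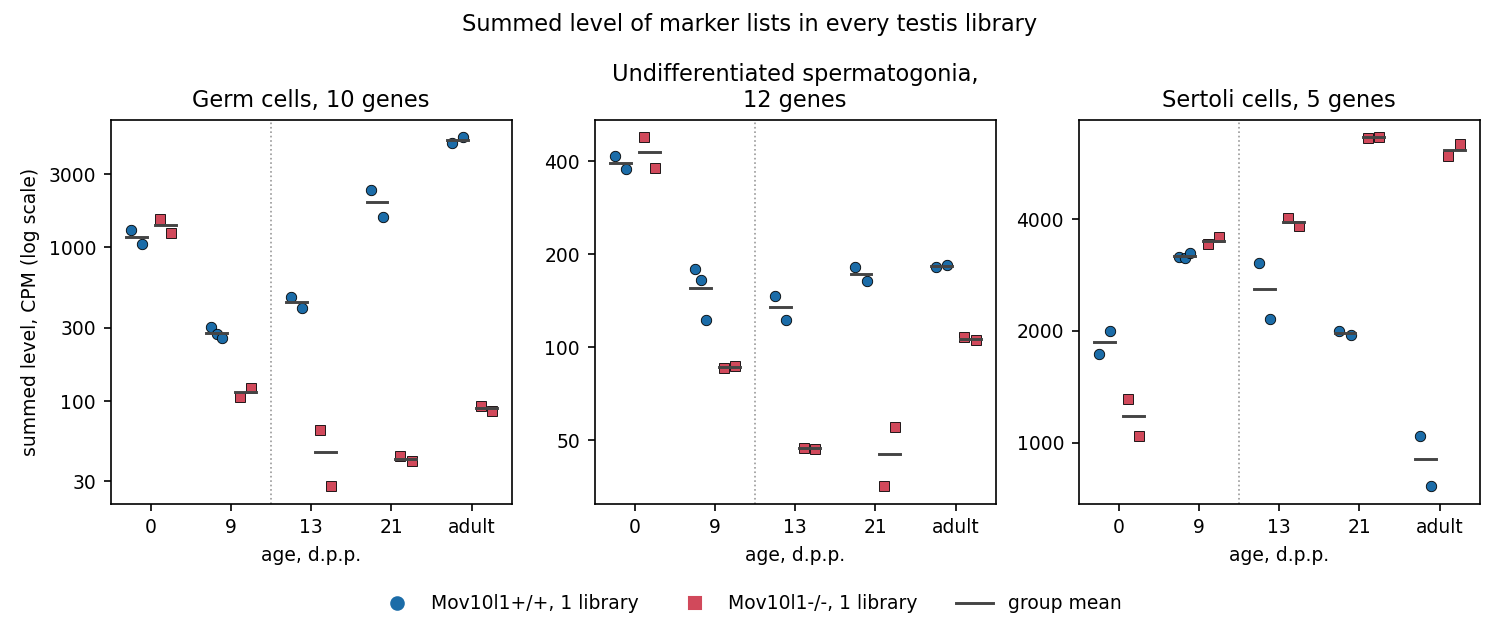
Summed level (CPM, log scale) of 10 germ cell genes, 12 genes of undifferentiated spermatogonia and 5 Sertoli cell genes in each of the 21 libraries by age; circles are wild-type and squares mutant libraries, bars are group means and the dotted line parts single-end from paired-end libraries. The germ cell sum in the mutant was 1244 to 1540 CPM at birth and 27.9 to 122 CPM at every later age, and the Sertoli cell sum in the mutant exceeded that of the wild type from 9 d.p.p. onward.

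The difference between the genotypes itself changed with age. Between 0 and 9 d.p.p. the log2 fold change of the mutant over the wild type shifted by -2.03 for Sall4 (SE 0.263, adjusted p = 0.00109), -1.26 for Sohlh1 (SE 0.224, adjusted p = 0.00535) and -1.15 for Zbtb16 (SE 0.209, adjusted p = 0.00594). These 3 of 4 calls stand beside 3.1% of 16812 genes called in that direction and 1.24% in the other, and they hold the contrast that supplied the symbols. Without wild-type replicate 3, no family code holds both genotypes at either age, so family and genotype cannot be told apart. Uchl1, already lower at birth, shifted by 0.49 (SE 0.249, adjusted p = 0.237). With wild-type replicate 3 included, Sohlh1 (-1.09, adjusted p = 0.045) and Zbtb16 (-0.77, adjusted p = 0.473) missed the threshold. The calls of Sohlh1 and Zbtb16 were each also lost in 6 of 8 fits that left out 1 library.

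Between 21 d.p.p. and adults, the genotype difference shifted upwards for all 4 genes, beside 22.2% of 16420 genes called in that direction and 18.5% in the other. The shifts were 6.98 for Sohlh1 (SE 0.556, adjusted p = 1.65e-05), 6.78 for Sall4 (SE 0.422, adjusted p = 4.54e-06), 6.32 for Uchl1 (SE 0.473, adjusted p = 1.18e-05) and 2.92 for Zbtb16 (SE 0.488, adjusted p = 8.84e-04). The median shift of all genes was 0.29, and relative to it the members stood at 6.69, 6.50, 6.03 and 2.63. On the CPM scale the wild-type mean fell with age to 0.141 times its 21 d.p.p. value for Sohlh1 and Sall4, 0.198 times for Uchl1 and 0.373 times for Zbtb16. In the mutant the adult mean was 15.1 times that of 21 d.p.p. for Sohlh1, 14.8 times for Sall4, 15.2 times for Uchl1 and 2.63 times for Zbtb16. The 10 germ cell genes summed to 40.6 to 43.6 CPM in the mutant of 21 d.p.p. and to 86.7 to 92.5 CPM in mutant adults. Of these 10, 6 were called as shifted upwards, 0 downwards and 4 not called, with a median shift of 2.42. The mutant mean of Ddx4, a germ cell RNA helicase of that list, went from 0.252 to 5.26 CPM. The shift of Ddx25 from the same list was -0.72 and was not called. The mutant ages were not tested against each other on their own.

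In the wild type alone, Sohlh1, Sall4 and Uchl1 fell from 0 to 9 d.p.p. and Zbtb16 did not. The 3 calls of the 4 genes stand beside 25% of 16537 genes called lower and 27.6% called higher. The log2 fold changes of 9 over 0 d.p.p. were -1.44 for Sohlh1 (SE 0.173, adjusted p = 9.06e-05), -1.59 for Sall4 (SE 0.202, adjusted p = 1.25e-04) and -1.35 for Uchl1 (SE 0.175, adjusted p = 1.48e-04). That of Zbtb16 was 1.01 (SE 0.452, adjusted p = 0.0754), with replicate 3 below both newborn libraries and the other replicates above them. Without replicate 3 it was 1.39 and was called (adjusted p = 3.28e-05). Total counts alone moved the median of all genes to -0.50 in this comparison, and relative to the median the values were the same to within 0.01. In the same step all 10 germ cell genes were called lower (median -1.93) and all 5 Sertoli cell genes higher (median 1.43). The part of cell composition in the 4 values was not tested.

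From 13 to 21 d.p.p. 0 of the 4 genes were called in the wild type, beside 3.5% of 13189 genes called higher and 0.652% called lower (edgeR). At an unadjusted p below 0.05 there were also 0 of the 4. The log2 differences were -0.40 for Sohlh1 (SE 0.551), -0.55 for Sall4 (SE 0.345), -0.69 for Zbtb16 (SE 0.529) and -0.10 for Uchl1 (SE 0.499). DESeq2 called 0 of the 4 as well. Without wild-type replicate 2 of 13 d.p.p., the smallest library, those of Sohlh1 (0.78), Zbtb16 (0.15) and Uchl1 (0.67) turned upwards, and none was called. From 21 d.p.p. to adults all 4 genes fell, beside 22.9% of 15287 genes called lower and 28.9% called higher. The log2 fold changes were -2.90 for Sohlh1, -2.88 for Sall4, -2.42 for Uchl1 and -1.50 for Zbtb16, with adjusted p-values between 1.12e-04 and 0.00799. In this step 4 of 10 germ cell genes were called higher and 0 lower, and 4 of 5 Sertoli cell genes were called lower and 0 higher. The part of cell composition was not tested. Zbtb16 missed the threshold without replicate 1 of either age (-1.26, adjusted p = 0.0276, and -1.12, adjusted p = 0.0468).

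Ranked over the 10 groups of genotype and age, the mean level of Sohlh1 was highest in the wild type of 13 d.p.p. (40.3 CPM) and 21 d.p.p. (30.1 CPM), followed by the newborns of both genotypes (26.4 CPM in the mutant and 23.2 CPM in the wild type). These 4 groups could not be parted by their ranges. The wild type of 9 d.p.p. (8.39 CPM) stood apart from the groups on either side of it. Below it came the mutant of 9 d.p.p. (4.50 CPM), wild-type adults (4.25 CPM) and mutant adults (3.72 CPM), whose ranges overlapped in that order. The mutants of 21 d.p.p. (0.246 CPM) and 13 d.p.p. (0.128 CPM) were last, on 2 to 6 counts per library, and did not overlap.

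The order of Sall4 began with the newborns, at 56.1 CPM in the mutant and 42.8 CPM in the wild type with overlapping ranges. The wild types of 13 d.p.p. (20.0 CPM), 9 d.p.p. (14.0 CPM) and 21 d.p.p. (13.4 CPM) followed, of which the last pair overlapped. The mutant of 9 d.p.p. (4.89 CPM), mutant adults (3.81 CPM) and wild-type adults (1.89 CPM) were apart from each other. The mutants of 21 d.p.p. (0.258 CPM) and 13 d.p.p. (0.256 CPM) could not be parted. Thus 3 of the 9 neighbouring pairs overlapped for Sall4, against 5 of 9 for Sohlh1.

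Uchl1 was highest in wild-type newborns (21.5 CPM), apart from all that followed. The wild types of 13 d.p.p. (9.72 CPM), 21 d.p.p. (8.79 CPM) and 9 d.p.p. (8.25 CPM) and the mutant newborns (7.38 CPM) overlapped with their neighbours. The mutant of 9 d.p.p. (4.29 CPM), mutant adults (2.07 CPM) and wild-type adults (1.74 CPM) were apart, and the mutants of 13 d.p.p. (0.229 CPM) and 21 d.p.p. (0.136 CPM) overlapped at the bottom. For Zbtb16 all 9 neighbouring pairs overlapped, from 11.5 CPM in the wild type of 13 d.p.p. and 9.17 CPM in mutant adults down to 3.04 CPM in mutant newborns and 2.60 CPM in wild-type adults. Orders that cross the line between 9 and 13 d.p.p. also cross the change of library type.

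Across the 10 group means, log2(CPM + 1) of Sohlh1 and Sall4 had a Pearson r of 0.93, Sohlh1 and Uchl1 0.92, and Sall4 and Uchl1 0.94. The r of Zbtb16 with the other 3 genes was 0.19 to 0.33. These values describe 10 points that share libraries, scaling and the low levels in the mutants of 13 and 21 d.p.p. Among 1003 genes with a symbol and a mean of at least 1 CPM, the patterns most alike to Sohlh1 were those of Trim71 (r 0.985), Dcaf8l (0.984) and Map3k15 (0.981). Trim71 is an RNA-binding ubiquitin ligase, and its means were 18.1 and 35.7 CPM in wild-type and mutant newborns and 17.6 and 0.368 CPM at 21 d.p.p. Most alike to Sall4 were Epha8, an ephrin receptor (0.977), Rps6ka6, a ribosomal S6 kinase (0.965), and Morc1, a germ cell ATPase (0.965).

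Most alike to Uchl1 were Crabp1, which binds retinoic acid (0.949), Rftn1 (0.942) and Map3k15 (0.941). The values for Zbtb16 were lower, with Rab29, a small GTPase, at 0.884, Rasgrp2 at 0.840 and Ret, the receptor of the growth factor GDNF in undifferentiated spermatogonia, at 0.776. Rab29 was at 0.344 CPM in wild-type and 3.29 CPM in mutant adults. The genes with a symbol were those named in the study's lists of changed genes, so these neighbours come from a preselected 1003 of 22285 genes.

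Other spermatogonial genes were described by 2 lists, of which 12 of 28 undifferentiated and 4 of 13 differentiating genes have an identifier, 11 and 4 of them through the study's 9 d.p.p. list. Pax7 and Elavl2 stand in its list of genes changed at birth, so their calls at 0 d.p.p. are not independent evidence. At 0 d.p.p. 1 of 12 undifferentiated genes was called higher and 1 lower, beside 0.991% and 0.918% of all genes, with a median of -0.06 beside 0.02 over all genes. Elavl2, an RNA-binding protein, rose from 18.4 to 24.3 CPM in the wild type to 47.0 to 55.2 CPM in the mutant (log2 fold change 1.24, adjusted p = 8.79e-04). Pax7, a mark of a rare stem cell fraction that is also present in muscle, fell from 0.851 to 1.02 CPM to 0.103 to 0.138 CPM (-2.93, adjusted p = 0.00535). At 13 d.p.p. 1 of 11 was called lower and 0 higher, beside 0.121% of all genes called lower, with a median of -2.90 beside 0.02. That gene was Dppa4, a chromatin protein of pluripotent cells, at 6.36 to 7.67 CPM against 0.122 to 0.201 CPM (-5.59, adjusted p = 0.00975).

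**Figure D4:**
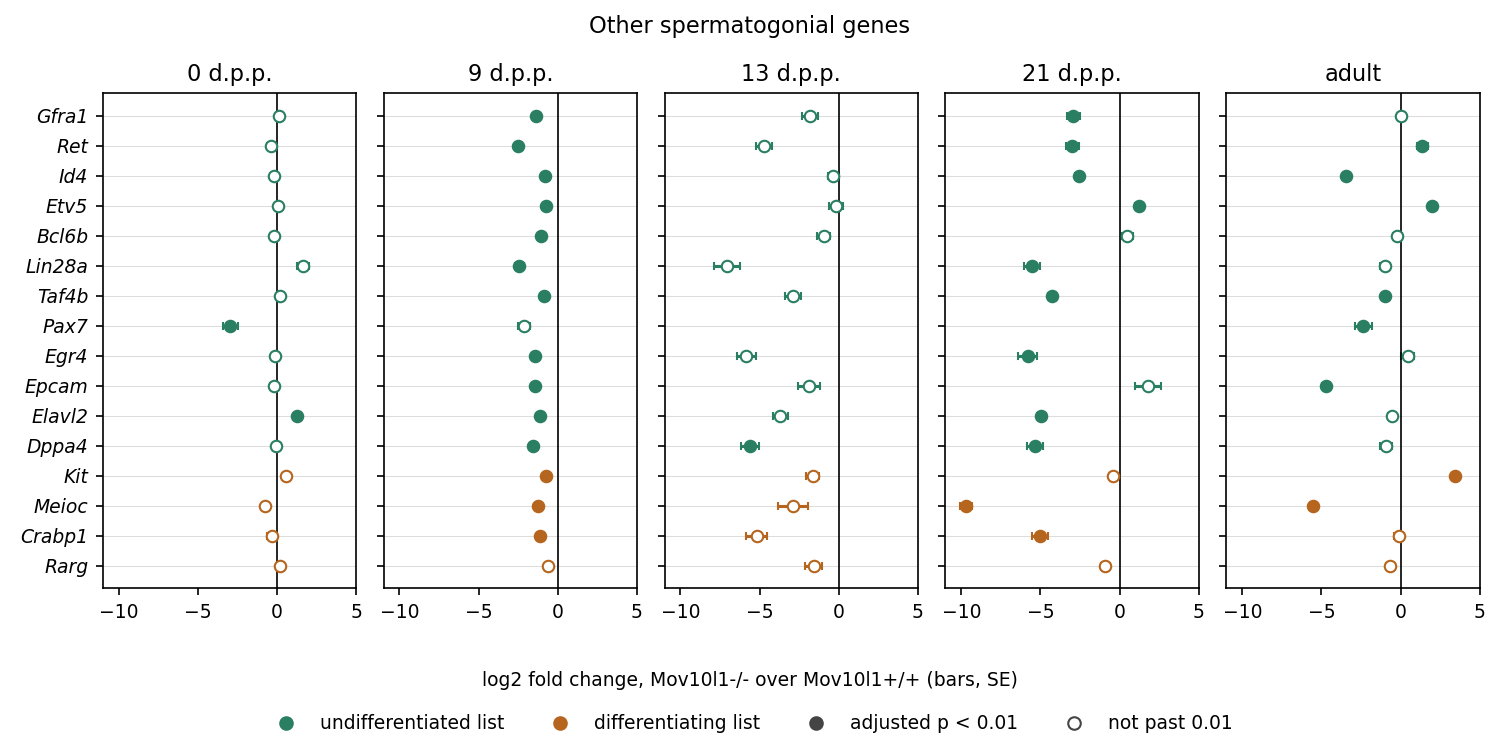
Log2 fold change of the mutant over the wild type, with SE as bars, for the 12 undifferentiated and 4 differentiating spermatogonial genes with an identifier at each age; filled symbols passed an adjusted p of 0.01, and Pax7 was not tested at 13 and 21 d.p.p. because of low counts. Meioc reached -9.70 at 21 d.p.p., and Kit, Etv5 and Ret lay to the right of 0 in adults, at 3.47, 2.01 and 1.37.

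At 21 d.p.p. 8 of 11 undifferentiated genes were called lower, 1 was called higher and 2 were not called, beside 20.9% of all genes tested called lower and 17.2% called higher. Their median log2 fold change was -2.99 beside 0.04 over all genes. Egr4, a transcription factor, was at 7.04 to 8.65 CPM in the wild type and 0 to 0.231 CPM in the mutant (-5.82, SE 0.624). Lin28a, which blocks maturation of let-7 microRNAs, was at 3.51 to 3.70 CPM against 0.064 to 0.087 CPM (-5.57, SE 0.507), and Dppa4 at 3.09 to 3.19 CPM against 0.064 to 0.087 CPM (-5.37, SE 0.513). Etv5, a transcription factor that spermatogonia share with Sertoli cells, rose from 6.05 to 6.63 CPM to 14.7 to 18.5 CPM (1.21, SE 0.229). Of 4 differentiating genes 2 were called lower and 0 higher, with a median of -2.98, among them Meioc, a factor of meiotic entry, at 230 to 328 CPM against 0.255 to 0.434 CPM (-9.70, SE 0.373).

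In adults, 2 of 12 undifferentiated genes were called higher and 4 lower, with a median of -0.75 beside 0.14 over all genes. With 37.2% of all genes tested called lower and 37.2% called higher, these counts do not exceed the background in either direction. Etv5 was at 11.9 to 15.8 CPM in the wild type and 54.4 to 58.9 CPM in the mutant (log2 fold change 2.01, SE 0.165), and Ret at 0.737 to 1.23 CPM against 2.38 to 2.94 CPM (1.37, SE 0.343). Epcam, an adhesion protein, was at 39.8 to 48.8 CPM against 1.53 to 1.86 CPM (-4.73, SE 0.212). Id4, a regulator of stem cell potential, was at 73.9 to 74.1 CPM against 6.26 to 7.24 CPM (-3.47, SE 0.149), and Pax7 reached -2.34 (SE 0.553). Of 4 differentiating genes, Kit, the receptor of stem cell factor that Leydig cells also bear, rose from 10.7 to 12.7 CPM to 130 to 134 CPM (3.47, SE 0.142) and Meioc fell (-5.55, SE 0.167).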

How the data were processed

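Reads had been mapped by the authors to MesAur1.0 (STAR 2.7.3a), and the deposited estimated counts, not normalized, are their featureCounts 2.0.0 totals over Ensembl release 99 exons, with multimapping and overlapping reads entered as fractions. The methods state reverse-strand counting for stranded libraries, and the testis kit was directional. Fractions spread reads over near-identical genes. Groups were taken from the labels. The estimated counts of all 21 columns were rounded and fitted within each comparison with edgeR 4.0.16 (R 4.3.3, TMM, filterByExpr, quasi-likelihood F-test, Benjamini-Hochberg over all genes tested, called at an adjusted p below 0.01). The SE is the log2 fold change divided by the square root of F. CPM uses TMM sizes over all libraries. The main 9 d.p.p. comparison leaves out wild-type replicate 3. The study states 2 libraries per genotype but not which, so the choice of replicates 1 and 2 was made here. Intervals of pooled ratios are exact binomial. Code was tested on simulated data. Symbols of 1042 genes came from the gene name columns of the study's lists, 2 more from the table, and 0 identifiers matched the reference annotation in hand, so no sequence was used.

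Named were the 4 members, Mov10l1, listed spermatogonial genes called at 0, 13 or 21 d.p.p. or in adults (up to 4 per direction and comparison), and the 3 genes most alike to each member, with marker genes of other cell types. The members and lists were chosen with earlier results of these data known. Alternatives were RLE or total-count scaling, DESeq2 1.42.0, other filters on low counts, a single fit of all libraries, blocks and leaving out each library. Tables and plots were made in Python 3.11.15 with numpy 2.4.6, pandas 2.3.3, scipy 1.17.1 and matplotlib 3.10.9. Columns of the authors' own fold changes and p-values were not used.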

Additional observations from a re-analysis of the deposited data

Results flagged for a closer look

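The difference between the genotypes was compared between ages by an interaction term (edgeR). From 0 to 9 d.p.p. the log2 fold change of the mutant over the wild type shifted by -1.26 for Sohlh1, -2.03 for Sall4 and -1.15 for Zbtb16, and these values are a description, since the shift holds the 9 d.p.p. contrast that supplied the symbols of these genes. With wild-type replicate 3 included, Sohlh1 (adjusted p = 0.045) and Zbtb16 (adjusted p = 0.473) were not called. Without that replicate, no family code holds both genotypes at either age. From 21 d.p.p. to adults the genotype difference shifted by 6.98 for Sohlh1, 6.78 for Sall4, 2.92 for Zbtb16 and 6.32 for Uchl1. All 4 were called in each of the 8 fits that left out 1 library.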

How the results depend on the processing

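Of 495 values of the 40 member results under alternatives, 438 kept their direction and side of the threshold, 18 newly passed it, 32 no longer passed it and 7 turned in direction. The causes were not tested.

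Counts of genes called higher and lower at 0 d.p.p. were 162 and 150. They were 350 and 344 with DESeq2, 694 and 579 with no filter on low counts, 22 and 22 with a single fit of all 21 libraries, 695 and 618 with a replicate block, and 108 to 420 and 98 to 425 when 1 library was left out. At 9 d.p.p. they were 87 and 498. With no filter they were 471 and 1177, with the single fit 14 and 54, with all 5 libraries 9 and 56, with the mutant libraries summed against 3 wild-type libraries 0 and 0, with the family code as a block 7 and 97, and with a crossed block 563 and 1385. Those called higher were 55 with total counts, 323 with DESeq2 and 133 with the replicate block, and leaving out 1 library gave 43 to 1095 higher and 317 to 1227 lower. At 13 d.p.p. they were 0 and 16. With no filter they were 3 and 427, with the single fit 62 and 687, with the replicate block 19 and 471, and without 1 library 0 to 48 and 90 to 203. Those called lower were 25 with RLE, 25 with total counts, 307 with DESeq2, 256 with DESeq2 and the block, and 4 with at least 10 counts in every library. At 21 d.p.p. they were 2547 and 3107, with total counts 171 and 1999, with no filter 4369 higher, with the single fit 4409 higher, and without 1 library 890 to 2785 and 1634 to 3200.

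For the members, the single fit took Uchl1 at 0 d.p.p. to -1.55, and at 9 d.p.p. Sohlh1 to -0.92, Zbtb16 to -1.003 and Uchl1 to -0.97, all no longer called. All 5 libraries of 9 d.p.p. gave -0.93, -1.02 and -0.98 for the same 3 genes. Summing the mutant libraries gave -0.93, -1.02 and -0.97, and -1.55 for Sall4, none called. The family code block gave -0.51 for Sohlh1, -0.77 for Uchl1 and 0.39 for Zbtb16, which turned. Uchl1 at 13 d.p.p. passed with DESeq2 (-5.69), no filter (-5.46), the single fit (-5.55), the replicate block (-5.64), DESeq2 with the block (-5.60) and without 1 library (-6.34 to -4.84). Zbtb16 at 21 d.p.p. passed with no filter (-0.96), at least 10 counts (-1.19) and the crossed block (-1.19). Sall4 in adults passed with total counts (1.19), no filter (0.99) and the single fit (1.16).

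In wild-type age steps, Zbtb16 from 0 to 9 d.p.p. passed with the replicate block (1.41). Replicate 3 stands alone in its block there and adds nothing to the age effect, so this repeats the fit without replicate 3. Without 1 library it ranged from 0.71 to 1.39. From 21 d.p.p. to adults it missed the threshold with the single fit (-1.64) and ranged from -1.92 to -1.12. From 13 to 21 d.p.p. leaving out 1 library gave -1.07 to 0.78 for Sohlh1, -1.29 to 0.15 for Zbtb16 and -0.66 to 0.67 for Uchl1. The shift of the genotype difference from 0 to 9 d.p.p. was no longer called with the single fit for Sohlh1 (-1.10) and Zbtb16 (-0.77), nor with wild-type replicate 3 (-1.09 and -0.77), and ranged without 1 library from -1.50 to -0.99 and from -1.21 to -1.05. Leaving out 1 library also gave -0.095 to 0.38 for Sohlh1 and 0.071 to 0.78 for Sall4 at 0 d.p.p. and -0.53 to 0.18 for Sohlh1 in adults.

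At 13 d.p.p. the replicate numbers follow the family codes F60 and F64, so there the replicate block is also a block on that code, whose meaning the labels do not state. At the other ages they follow no shared code. Same-numbered libraries deviated from their group means with r of 0.09, -0.12, 0.25, -0.38 and 0.15 from 0 d.p.p. to adults, and with 2 pairs an age the block was kept as an alternative. The block changed no member call beyond Uchl1 at 13 d.p.p. and Zbtb16 from 0 to 9 d.p.p., where it takes replicate 3 out of the age effect. The crossed block and DESeq2 with the block were chosen after seeing the data. Depth limits the mutants of 13 and 21 d.p.p., where Sohlh1, Sall4 and Uchl1 rest on 2 to 9 counts, and the wild type of 13 d.p.p., which holds the smallest library. Where 1 library is left from a group, it is assumed to vary like the other group.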
